A study of Mus musculus with 9 samples.

Results

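The genes described here are the mitochondrial SLC25 carriers of the mouse, taken as every symbol of the deposited count table made of Slc25a and a number. There are 47 such genes among the 55367 symbols of the table. Of these, 40 passed the filter on low counts and were tested, among 15138 genes tested in all. Each value comes from bulk RNA sequencing of the left ventricle in 9 libraries, 3 per group. In the MI+BPD group, mice had a myocardial infarction (MI) and received BPD, a treatment aimed at the proliferative phase of infarct healing. Mice of the MI group had the infarction alone, and mice of the Sham group had sham surgery. The labels do not spell out BPD or give its dose, and they name no strain, sex, age or genotype. Tissue was taken at day 14 after MI and covered the infarct core and the region around it. A sham heart has neither region, so a difference from Sham may in part be one between regions of the ventricle. The labels do not say whether the libraries of a group came from separate animals, so p-values measure only the spread between libraries, which may be technical.

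SLC25 carriers are small proteins encoded in the nucleus, and most of them sit in the mitochondrial inner membrane. Each moves a narrow set of solutes, such as ADP for ATP, phosphate, citrate, amino acids, acylcarnitines, coenzymes or iron, between the cytosol and the matrix. In heart muscle the family is known above all for exporting the ATP made by oxidative phosphorylation (OXPHOS) and for feeding that machinery with phosphate, fatty acids and reducing equivalents. Some members are widely expressed and others are typical of muscle, liver or testis.

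The tissue carried heart muscle transcripts in every library, at lower levels after infarction. The 12 cardiomyocyte markers summed to between 36201 and 54119 CPM (read counts scaled by library size and by the trimmed mean of M values, TMM) in MI+BPD, 22057 to 38554 CPM in MI and 93869 to 97855 CPM in Sham. All 12 were lower in MI than in Sham by edgeR's quasi-likelihood test, while all 10 fibroblast markers and all 9 macrophage markers were higher. In this comparison 31.9% of all genes tested were called lower and 37% higher, at an adjusted p under 0.05. Blood endothelium had 6 of 9 markers lower, and lymphocytes had 7 of 8 higher. Smooth muscle and pericyte markers were mixed, with 3 of 6 higher and 2 lower. Of 4 tested erythroid markers 0 were called, and the 1 tested adipocyte marker was lower. Fibroblast markers summed to between 21035 and 22768 CPM in MI+BPD, 15499 to 22738 CPM in MI and 1270 to 1444 CPM in Sham. Total counts ran from 14451410 to 19269072 per library. Library 3 of MI and library 1 of MI+BPD had the highest cardiomyocyte sums and the highest carrier sums of their groups. In bulk tissue, fewer cells of a type and less RNA per cell cannot be told apart.

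The carriers took a smaller part of the RNA after infarction. The 47 genes together made up 0.413% ± 0.0621 of all counts in MI+BPD, 0.336% ± 0.0573 in MI and 0.646% ± 0.0278 in Sham (SD, n = 3 each). Their summed CPM was 4926, 3291 and 3418 in the MI+BPD libraries, 2269, 2418 and 3535 in the MI libraries and 8142, 8761 and 9046 in the Sham libraries. Neither infarcted group overlapped with Sham, and MI+BPD and MI overlapped with each other. How often sums over other sets of genes do so was not examined. Cardiomyocyte markers moved with these sums, and their part in the result was not tested. Slc25a4 alone held 44.2% ± 2.67 of the carrier counts in MI+BPD, 37.3% ± 4.20 in MI and 51.6% ± 0.737 in Sham.

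**Figure D1:**
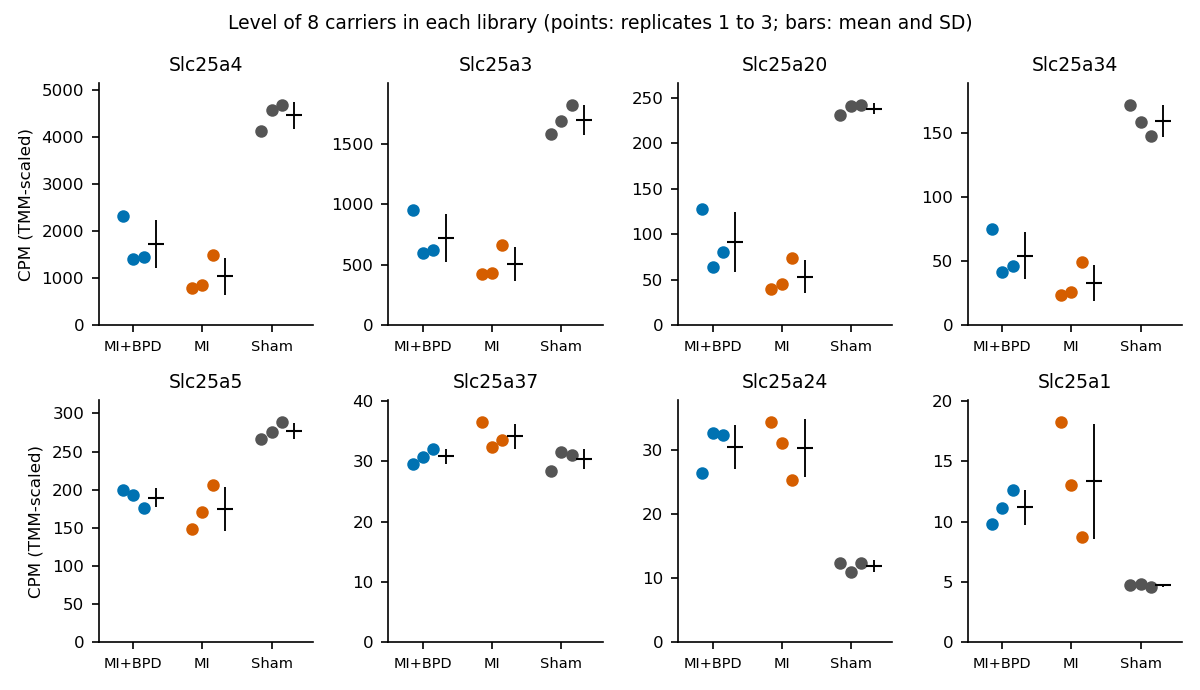
TMM-scaled CPM (vertical axis, from 0) of 8 carriers in each library, with MI+BPD, MI and Sham from left to right. Points are replicates 1 to 3 and the bars beside them give the mean and SD. In the 4 upper panels the infarcted groups lie below every Sham library, and Slc25a24 and Slc25a1 lie above Sham.

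In MI against Sham, most carriers were lower and a smaller set was higher. Of the 40 tested, 22 were lower and 10 higher at an adjusted p under 0.05 in edgeR's quasi-likelihood test, and 8 did not pass. Over all genes tested, 68.9% were called in this comparison, 31.9% as lower and 37% as higher. Higher calls were the more frequent over all genes, and lower calls among the carriers. The median log2 fold change was -0.50 over the 40 tested carriers and 0.07 over all genes tested. Of the 22 lower carriers, 12 kept their sign and call under every scaling tried, and 7 of the 10 higher ones did.

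**Figure D2:**
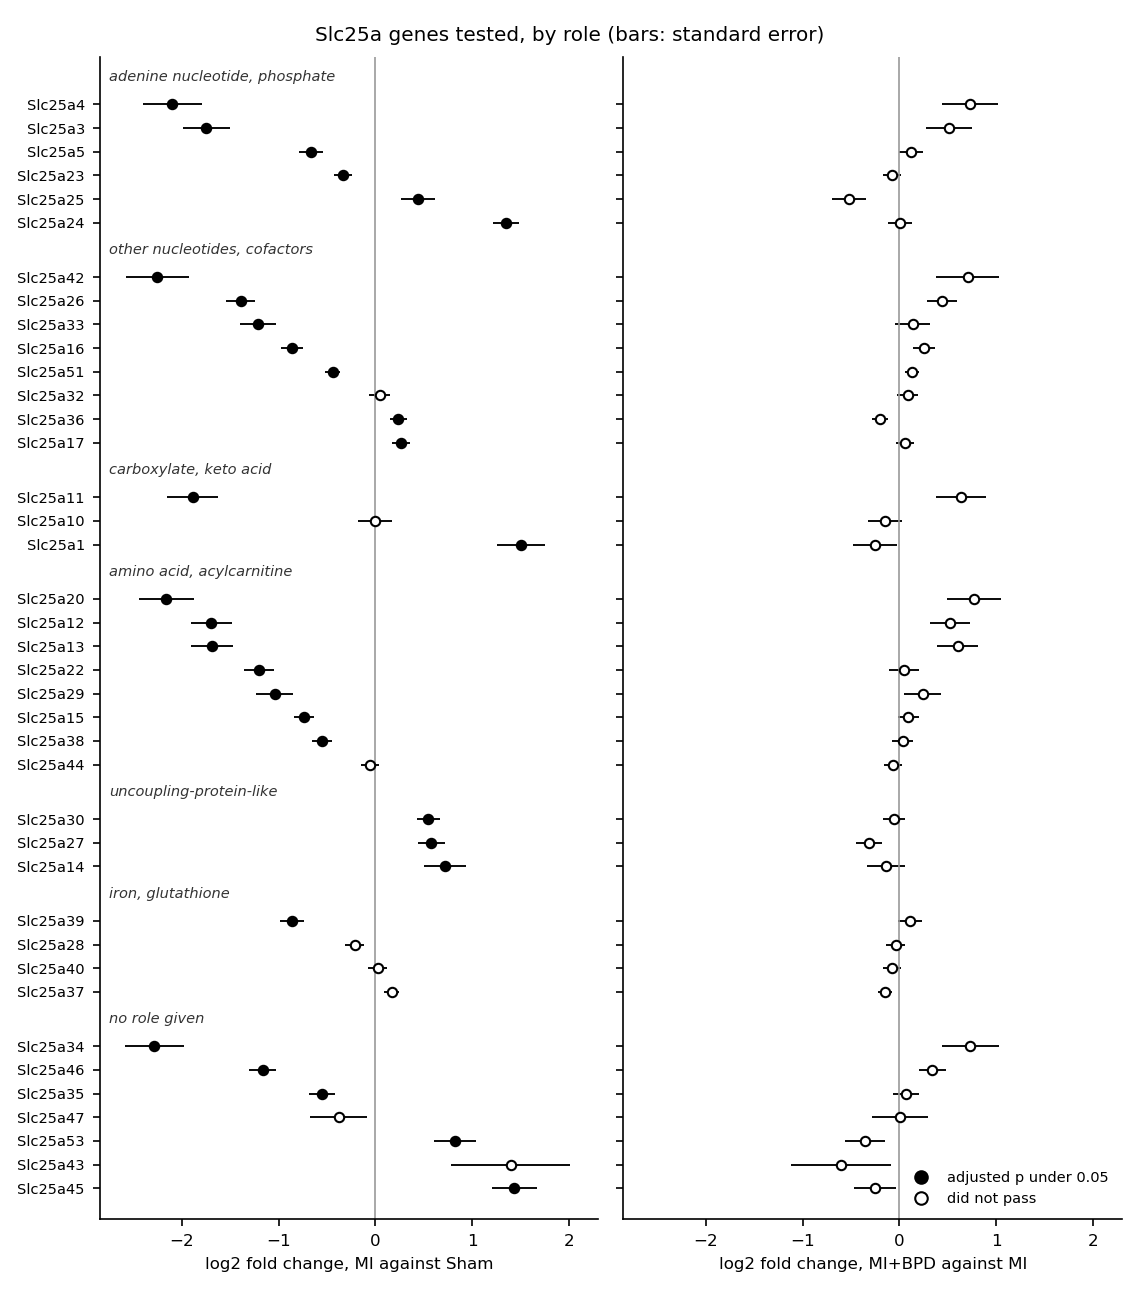
Log2 fold change (horizontal axis) of 39 of the 40 tested carriers, grouped by the solutes they carry, in MI against Sham on the left and MI+BPD against MI on the right. Bars are standard errors and filled points passed an adjusted p under 0.05. On the left, 31 points are filled, with Slc25a34 at -2.29 and Slc25a1 at 1.5 as the ends. On the right, no point is filled.

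Slc25a4 encodes ANT1, the ADP/ATP exchanger typical of heart and skeletal muscle, and it was the most abundant carrier in every group. It had 2330, 1404 and 1459 CPM in MI+BPD, 785, 853 and 1490 CPM in MI and 4136, 4575 and 4690 CPM in Sham. All libraries of both infarcted groups lay below all Sham libraries. Here and in the paragraphs below, CPM values of carriers are described as overlapping between groups or not. The share of all genes tested without such overlap is not given, so these statements describe the values only. The log2 fold change in MI against Sham was -2.10 ± 0.30 (SE), which is 4.28-fold lower, with an adjusted p of 0.00027 in edgeR's quasi-likelihood test. Slc25a5 encodes ANT2, the widely expressed exchanger of the same nucleotides. It had 200, 193 and 177 CPM in MI+BPD, 148, 170 and 206 CPM in MI and 267, 276 and 288 CPM in Sham. MI and Sham did not overlap, and the fall was smaller than that of Slc25a4, at a log2 fold change of -0.67 ± 0.13 (adjusted p 0.00117, edgeR). Scaled by library totals alone, Slc25a5 had 0.06 and lost its call.

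The starts of the 2 ANT genes are shown for reference. A link between their letters and the unequal change of the pair was not tested, and CCAAT is found in 41.1% of all genes with such a window. Each line holds the 250 bases before the RefSeq transcription start of one gene, 5′ to 3′ on the gene's own strand, on mouse build GRCm38.p6. Slc25a4 lies at chr8:46211063-46211312 on the minus strand, and Slc25a5 at chrX:36795347-36795596 on the plus strand. Capitals mark every match to the 8 short motifs described at the end, of which Slc25a4 has 2, both CCAAT, and Slc25a5 has 0.
Slc25a4: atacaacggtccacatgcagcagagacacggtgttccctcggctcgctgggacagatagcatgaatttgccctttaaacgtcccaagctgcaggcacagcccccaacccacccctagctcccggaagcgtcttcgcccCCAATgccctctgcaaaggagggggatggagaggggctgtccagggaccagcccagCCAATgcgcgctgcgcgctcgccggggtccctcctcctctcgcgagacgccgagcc
Slc25a5: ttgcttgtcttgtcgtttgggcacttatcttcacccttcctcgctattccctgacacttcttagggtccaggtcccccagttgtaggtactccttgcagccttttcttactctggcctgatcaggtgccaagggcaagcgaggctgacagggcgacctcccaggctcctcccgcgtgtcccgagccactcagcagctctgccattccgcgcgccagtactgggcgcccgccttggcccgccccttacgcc

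Slc25a3 encodes the phosphate carrier, which supplies the ATP synthase with phosphate and also carries copper. It was the runner-up in level, with 952, 592 and 623 CPM in MI+BPD, 420, 431 and 665 CPM in MI and 1577, 1688 and 1818 CPM in Sham. No infarcted library reached the Sham range, and the log2 fold change in MI against Sham was -1.75 ± 0.25 (adjusted p 0.000237, edgeR). The ATP-Mg/phosphate carriers, which set the size of the matrix adenine nucleotide pool and respond to calcium, went separate ways. Slc25a24 had 26.5, 32.7 and 32.4 CPM in MI+BPD, 34.4, 31.1 and 25.5 CPM in MI and 12.4, 10.9 and 12.4 CPM in Sham, a rise of 1.35 ± 0.13 on the log2 scale in MI against Sham (adjusted p 5.58e-05, edgeR). Both infarcted groups lay entirely above Sham. Slc25a23 had 31.6, 37.8 and 34.4 CPM in MI+BPD, 33.9, 36.3 and 39.2 CPM in MI and 42.0, 47.5 and 48.3 CPM in Sham. Its log2 fold change was -0.33 ± 0.09 in MI against Sham (adjusted p 0.0103, edgeR), and scaling by library totals alone called it higher, at 0.40. Slc25a25 was called higher by 0.44 ± 0.18 (adjusted p 0.0478, edgeR), a call kept in only 3 of the 9 fits that left out 1 library. In this group as a whole, 4 of 6 tested members were lower and 2 higher.

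Among the carriers of other nucleotides and cofactors, 6 of 9 tested members were lower, 2 higher and 1 did not pass. Slc25a42, which brings coenzyme A into the matrix, was lowest relative to Sham. It had 34.0, 13.2 and 17.1 CPM in MI+BPD, 10.6, 11.1 and 17.6 CPM in MI and 61.2, 61.8 and 64.3 CPM in Sham, with a log2 fold change of -2.25 ± 0.33 in MI against Sham (adjusted p 0.000279, edgeR). Every infarcted library lay below the Sham range. The 250 bases before its RefSeq start, at chr8:70212282-70212531 on the minus strand of GRCm38.p6, are shown because they hold 5 CCAAT matches on both strands, in capitals (ATTGG is CCAAT read on the other strand).
Slc25a42: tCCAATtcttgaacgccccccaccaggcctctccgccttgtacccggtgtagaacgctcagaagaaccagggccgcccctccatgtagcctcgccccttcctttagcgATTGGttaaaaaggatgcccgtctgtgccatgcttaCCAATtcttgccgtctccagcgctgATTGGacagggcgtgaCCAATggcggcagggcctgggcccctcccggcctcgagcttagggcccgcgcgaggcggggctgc

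Slc25a26 imports S-adenosylmethionine, the methyl donor, and had a log2 fold change of -1.39 ± 0.15 in MI against Sham. Slc25a16, linked to coenzyme A, had -0.86 ± 0.11, and Slc25a51, the NAD carrier, had -0.44 ± 0.08. All 3 passed edgeR's test, with adjusted p between 7.9e-05 and 0.00066. With library totals Slc25a26 remained lower, Slc25a16 lost its call and Slc25a51 was called higher, at 0.29. The pyrimidine nucleotide carriers split. Slc25a33 had 8.21, 6.93 and 6.20 CPM in MI+BPD, 5.42, 5.70 and 8.28 CPM in MI and 14.6, 13.5 and 16.8 CPM in Sham, and it was lower in MI by a log2 fold change of -1.21 ± 0.18 (adjusted p 0.000342, edgeR). Slc25a36 had 78.2, 87.3 and 91.2 CPM in MI+BPD, 91.4, 103 and 99.7 CPM in MI and 80.8, 88.0 and 80.7 CPM in Sham. Its rise of 0.24 ± 0.08 in MI against Sham (adjusted p 0.0296, edgeR) passed in 5 of the 9 fits that left out 1 library and not in DESeq2. Slc25a17, a carrier of peroxisomes rather than mitochondria, rose by 0.26 ± 0.09 (adjusted p 0.0302, edgeR), likewise in 5 of 9 such fits and not in DESeq2. Slc25a32, the folate and FAD carrier, had 0.05 ± 0.11 and did not pass.

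The carboxylate carriers moved in opposite directions. Slc25a11 exchanges 2-oxoglutarate for malate in the malate-aspartate shuttle, which passes reducing equivalents from cytosolic NADH to the matrix. It had 271, 162 and 169 CPM in MI+BPD, 97.0, 110 and 179 CPM in MI and 455, 467 and 507 CPM in Sham, with a log2 fold change of -1.89 ± 0.26 in MI against Sham (adjusted p 0.000232, edgeR). All 6 infarcted libraries lay below Sham. Slc25a1, which exports citrate for cytosolic acetyl-CoA and lipid synthesis, had 9.76, 11.1 and 12.6 CPM in MI+BPD, 18.2, 13.0 and 8.75 CPM in MI and 4.76, 4.81 and 4.57 CPM in Sham. Its rise of 1.5 ± 0.25 in MI against Sham (adjusted p 0.000559, edgeR) was the largest among the called carriers, and the MI libraries spread widely, all above Sham. Slc25a10, the dicarboxylate carrier, had -0.01 ± 0.18 and did not pass. The start of Slc25a1, at chr16:17928220-17928469 on the minus strand of GRCm38.p6, is shown as that of the carrier with the largest rise, and its capitals mark 1 E-box and 1 CCAAT match.
Slc25a1: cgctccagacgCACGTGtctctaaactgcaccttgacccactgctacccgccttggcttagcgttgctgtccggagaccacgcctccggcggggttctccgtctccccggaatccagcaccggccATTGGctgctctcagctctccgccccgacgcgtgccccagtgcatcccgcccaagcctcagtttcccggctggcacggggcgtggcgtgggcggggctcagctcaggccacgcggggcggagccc

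Among the amino acid and acylcarnitine carriers, 7 of 8 tested members were lower in MI against Sham and 0 higher. Slc25a20 exchanges acylcarnitine for carnitine, the step that brings long-chain fatty acids into the matrix for oxidation. It had 128, 64.4 and 80.8 CPM in MI+BPD, 40.3, 45.3 and 74.5 CPM in MI and 231, 241 and 242 CPM in Sham. Its log2 fold change of -2.16 ± 0.28 (adjusted p 0.000179, edgeR) is 4.46-fold lower in MI, and no infarcted library overlapped with Sham. The aspartate/glutamate carriers of the malate-aspartate shuttle fell side by side. Slc25a12 (aralar) had 160, 103 and 111 CPM in MI+BPD, 71.8, 75.7 and 112 CPM in MI and 270, 276 and 293 CPM in Sham, with -1.69 ± 0.21 on the log2 scale in MI against Sham (adjusted p 0.000129, edgeR). Slc25a13 (citrin) had 122, 78.5 and 85.7 CPM in MI+BPD, 48.8, 55.8 and 84.4 CPM in MI and 201, 206 and 201 CPM in Sham, with -1.69 ± 0.22 (adjusted p 0.000171, edgeR). In both genes library 3 of MI was the highest MI library and library 1 of MI+BPD the highest of its group.

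Slc25a22, a glutamate carrier, had 16.7, 10.8 and 14.2 CPM in MI+BPD, 12.5, 14.5 and 13.3 CPM in MI and 32.8, 33.2 and 26.8 CPM in Sham. It was lower in MI by a log2 fold change of -1.21 ± 0.15 (adjusted p 0.000156, edgeR), and here library 3 of MI did not stand above the others. Slc25a29, a carrier of basic amino acids, had a log2 fold change of -1.04 ± 0.19. Slc25a15, the ornithine carrier of the urea cycle, had -0.74 ± 0.11, and Slc25a38, a glycine carrier used in haem synthesis, had -0.55 ± 0.11. These 3 passed edgeR's test, with adjusted p between 0.000277 and 0.0013, and lost their calls with library totals only. Slc25a44, a carrier of branched-chain amino acids, had -0.05 ± 0.09 and did not pass.

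All 3 tested carriers close in sequence to the uncoupling proteins were higher in MI than in Sham, at low levels. Slc25a14 had 2.22, 3.39 and 2.84 CPM in MI+BPD, 3.33, 3.22 and 2.76 CPM in MI and 2.01, 1.57 and 2.06 CPM in Sham, a rise of 0.72 ± 0.21 (adjusted p 0.0136, edgeR). Slc25a27 had 6.59, 7.39 and 7.72 CPM in MI+BPD, 8.19, 8.31 and 10.4 CPM in MI and 6.59, 5.598 and 5.87 CPM in Sham, a rise of 0.58 ± 0.14 (adjusted p 0.00451, edgeR). Slc25a30 rose by 0.55 ± 0.12 (adjusted p 0.00241, edgeR). The MI libraries of all 3 genes lay above their Sham libraries. The call of Slc25a14 was lost without library 2 of Sham.

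Of the iron and glutathione carriers, 1 of 4 was called in MI against Sham. The series concerns iron handling in infarct healing, and the mitoferrins bring iron into the matrix for haem and iron-sulphur clusters. Slc25a37 (mitoferrin-1) had 29.6, 30.7 and 32.0 CPM in MI+BPD, 36.5, 32.4 and 33.6 CPM in MI and 28.5, 31.6 and 31.0 CPM in Sham. The MI libraries lay just above Sham, with a log2 fold change of 0.17 ± 0.08 that did not pass (adjusted p 0.0733, edgeR). Slc25a28 (mitoferrin-2) had 17.4, 15.9 and 17.1 CPM in MI+BPD, 18.8, 16.9 and 16.0 CPM in MI and 22.3, 18.98 and 18.8 CPM in Sham, with -0.21 ± 0.10 (adjusted p 0.0823, edgeR).

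Slc25a39, which brings glutathione into the matrix, had 42.0, 31.6 and 35.1 CPM in MI+BPD, 28.4, 35.5 and 36.9 CPM in MI and 58.6, 62.5 and 61.7 CPM in Sham. It was lower in MI by a log2 fold change of -0.86 ± 0.12 (adjusted p 0.000279, edgeR), a call lost with library totals only. Its paralogue Slc25a40 had 14.3, 17.2 and 15.1 CPM in MI+BPD, 15.6, 17.0 and 16.3 CPM in MI and 15.6, 15.7 and 16.8 CPM in Sham, with 0.02 ± 0.09 (adjusted p 0.849, edgeR). Its groups overlapped.

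A further 7 tested members belong to none of these groups, and 3 of them were lower and 2 higher in MI than in Sham. Slc25a34 had 75.1, 41.7 and 46.3 CPM in MI+BPD, 23.2, 26.1 and 49.0 CPM in MI and 172, 159 and 148 CPM in Sham. Its log2 fold change of -2.29 ± 0.30 (adjusted p 0.000186, edgeR) was the largest fall among the carriers, 4.88-fold. Slc25a46, which sits in the outer membrane and bears on mitochondrial shape, had -1.17 ± 0.14 (adjusted p 0.000124, edgeR). Slc25a45 had 8.62, 12.0 and 10.6 CPM in MI+BPD, 12.9, 13.8 and 10.4 CPM in MI and 2.84, 5.42 and 5.41 CPM in Sham, a rise of 1.44 ± 0.24 (adjusted p 0.000545, edgeR). Slc25a53 had 2.75, 3.70 and 3.96 CPM in MI+BPD, 4.95, 4.40 and 4.004 CPM in MI and 3.202, 1.92 and 2.44 CPM in Sham, a rise of 0.82 ± 0.22 (adjusted p 0.00847, edgeR). MI lay above Sham in both. Slc25a35 was lower, at -0.55 ± 0.13 (adjusted p 0.00439, edgeR), and Slc25a43 and Slc25a47 did not pass.

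The 7 carriers below the filter had between 0 and 13 counts per library. They are Slc25a2, Slc25a18, Slc25a21, Slc25a31, Slc25a41, Slc25a48 and Slc25a54. Slc25a31, the adenine nucleotide exchanger known from testis, had 7, 5 and 4 counts in MI+BPD, 5, 3 and 13 counts in MI and 0, 6 and 4 counts in Sham. Slc25a41 and Slc25a54 had 0 counts in all 9 libraries. A count of 0 allows up to 3 counts, which is between 0.156 and 0.208 CPM of a library's total, for counting error only.

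Levels can be ordered between genes only roughly by dividing by transcript length, because the transcripts expressed and the annotation used for counting are not known. Per kilobase of the longest annotated coding transcript, Slc25a4 averaged 899 CPM in MI+BPD, 542 CPM in MI and 2320 CPM in Sham, and Slc25a3 followed with 448 CPM in MI+BPD, 313 CPM in MI and 1051 CPM in Sham. Slc25a11 ranked 3 in Sham, with 266 to 296 CPM per kilobase against 215 to 233 for Slc25a5. In MI the order of these 2 was the reverse, with 119 to 166 CPM per kilobase for Slc25a5 and 56.7 to 105 for Slc25a11. In MI+BPD their ranges overlapped, at 142 to 161 for Slc25a5 and 94.9 to 158 for Slc25a11. Slc25a20 and Slc25a13 held ranks 5 and 6 in all 3 groups, with 51.1 and 30.6 CPM per kilobase in MI+BPD, 29.9 and 20.2 in MI and 134 and 64.9 in Sham. Slc25a42 ranked 21 in MI+BPD and 29 in MI, against 12 in Sham, at 6.71, 4.11 and 19.5 CPM per kilobase in that order of groups.

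MI+BPD against MI sets treated against untreated infarction. No carrier was called, 0 of 40 by edgeR's quasi-likelihood test, and the background was 0% of all genes tested. At an unadjusted p under 0.05 there were 12 carriers, 9 higher and 3 lower. Over all genes tested this share was 13.5%, with 8.62% higher and 4.88% lower. The median log2 fold change was 0.06 over the 40 carriers and 0.003 over all genes tested. The 3 of smallest p among the positive values were Slc25a26, Slc25a20 and Slc25a13. Slc25a26 had 14.1, 11.3 and 11.5 CPM in MI+BPD and 7.28, 8.83 and 11.0 CPM in MI, a log2 fold change of 0.44 ± 0.15 that did not pass (adjusted p 0.369, edgeR). Slc25a20 had 0.77 ± 0.28 and Slc25a13 had 0.60 ± 0.22, both with an adjusted p of 0.369 in edgeR and with overlapping libraries. On the negative side, Slc25a25 had 6.53, 9.39 and 7.97 CPM in MI+BPD and 12.1, 12.7 and 9.48 CPM in MI, at -0.52 ± 0.17, followed by Slc25a36 at -0.20 ± 0.08 and Slc25a27 at -0.31 ± 0.13. Their adjusted p was 0.369 in edgeR. Their libraries did not overlap between the groups, which was not set against the share of all genes tested for which this holds. Slc25a4, at 0.73 ± 0.29 (adjusted p 0.369, edgeR), overlapped between the groups through library 3 of MI.

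Whether carriers were called in MI+BPD against MI turned on library 3 of MI and on the tool. Without that library, 8 carriers were called higher and 0 lower, when 8.76% of all genes were called, 7.29% higher and 1.47% lower. They were Slc25a4 at 1.08 ± 0.23, Slc25a11 at 0.95, Slc25a12 at 0.76, Slc25a13 at 0.87, Slc25a20 at 1.09, Slc25a26 at 0.61, Slc25a34 at 1.14 and Slc25a46 at 0.48. The limma-voom fit, which weights libraries by quality, called 7 carriers higher and 1 lower, with 6.55% of all genes called, 5.09% higher and 1.46% lower. Leaving out library 3 of MI and library 1 of MI+BPD together, a choice made after the data were seen, gave 10 higher and 1 lower, with 10.3% of all genes called, 7.65% higher and 2.61% lower. DESeq2 called 0 carriers and 51 genes in all, or 0.337% (0.139% higher, 0.198% lower). Leaving out library 1 of MI+BPD went the other way. Then 1 carrier and 822 of 15520 genes had an unadjusted p under 0.05 in edgeR, and the median over the carriers was 0.02. Without library 1 of MI this held for 3 carriers and 974 of 15337 genes, and without library 2 of MI for 2 carriers and 832 of 15379 genes. Without library 3 of MI the cardiomyocyte sums no longer overlap, at 36201 to 54119 CPM in MI+BPD and 22057 and 23517 CPM in MI, and their part in these calls was not tested.

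MI+BPD against Sham shares the Sham libraries with MI against Sham, so it is given for its own values. Here 22 carriers were lower, 6 higher and 12 did not pass, with 59.6% of all genes called, 27.8% lower and 31.8% higher. Slc25a4 was lower by a log2 fold change of -1.37 ± 0.30 in MI+BPD, Slc25a20 by -1.39 ± 0.28, Slc25a34 by -1.55 ± 0.30, Slc25a42 by -1.55 ± 0.32 and Slc25a3 by -1.23 ± 0.24, with adjusted p between 0.00209 and 0.00367 in edgeR. Among the higher ones, Slc25a24 had 1.36 ± 0.14 (adjusted p 8.87e-05, edgeR), Slc25a1 had 1.25 ± 0.25 and Slc25a45 had 1.19 ± 0.24. Slc25a30, Slc25a17 and Slc25a14 had 0.49 ± 0.12, 0.32 ± 0.09 and 0.58 ± 0.22, and the call of Slc25a14 was kept in only 2 of the 9 fits that left out 1 library. By solute, the lower calls fell on 4 of 6 adenine nucleotide and phosphate carriers, 6 of 9 carriers of other nucleotides and cofactors, 7 of 8 amino acid and acylcarnitine carriers, 1 of 3 carboxylate carriers, 1 of 4 iron and glutathione carriers and 3 of 7 in none of these groups.

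Ratios within a library do not depend on the scaling between libraries, so related carriers were set against each other as ratios of counts. Slc25a4 had 11.7, 7.26 and 8.26 counts for each count of Slc25a5 in MI+BPD, 5.30, 5.002 and 7.24 in MI and 15.5, 16.6 and 16.3 in Sham. No 2 groups overlapped in this ratio, although library 3 of MI and library 2 of MI+BPD nearly touched. The difference in log2 ratio was -1.48 in MI against Sham, 0.62 in MI+BPD against MI and -0.86 in MI+BPD against Sham. Each had a 2-sided exact permutation p of 0.1, the smallest that 3 libraries against 3 allow, so 0.05 could not be reached. Adjusted over the 7 pairs the p was 0.14, 0.35 and 0.117 in that order of comparisons. The transcripts of the ANT pair were 79.1% alike over 893 aligned bases, with a longest shared run of 20 bases. How reads that fit both genes were counted is not given in the sources used here.

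**Figure D3:**
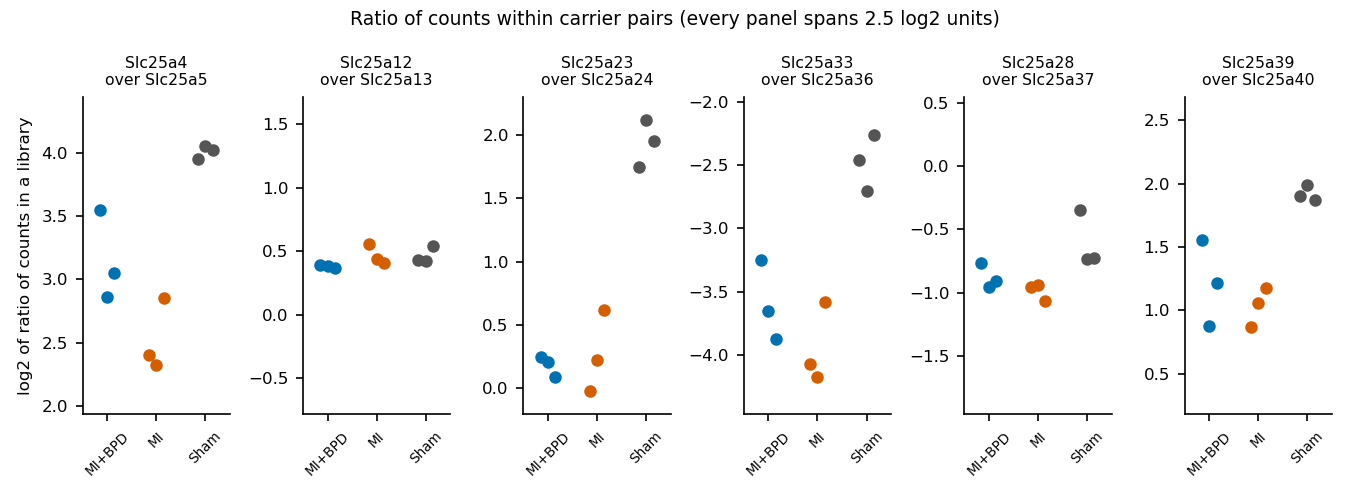
Log2 of the ratio of counts of related carriers in each library (vertical axis, spanning 2.5 log2 units in every panel), with MI+BPD, MI and Sham from left to right. Each point is 1 library. The Sham points stand apart from both other groups in the panels of Slc25a4 over Slc25a5, Slc25a23 over Slc25a24, Slc25a33 over Slc25a36 and Slc25a39 over Slc25a40, while Slc25a12 over Slc25a13 stays within 0.37 to 0.56. In that last panel the MI+BPD points lie below all others. The Sham points of Slc25a28 over Slc25a37 also lie above all others, by a narrow gap (-0.73 in Sham and -0.76 in MI+BPD).

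The ratios of the other pairs show how the partners changed relative to each other, not which of them changed. Slc25a23 had 1.19, 1.16 and 1.06 counts per count of Slc25a24 in MI+BPD, 0.985, 1.17 and 1.54 in MI and 3.37, 4.33 and 3.87 in Sham, so the pair was close to balance after infarction and weighted to Slc25a23 in Sham. Its log2 ratio differed by -1.67 in MI against Sham and by -0.09 in MI+BPD against MI. Slc25a33 over Slc25a36 differed by -1.47, and Slc25a39 over Slc25a40 by -0.89, in MI against Sham. The mitoferrin ratio, Slc25a28 over Slc25a37, was 0.589, 0.516 and 0.534 in MI+BPD, 0.515, 0.523 and 0.477 in MI and 0.785, 0.602 and 0.605 in Sham, a difference of -0.38 in MI against Sham. These 4 differences had no overlap between MI and Sham and an exact permutation p of 0.1 (0.14 adjusted over the pairs). The aspartate/glutamate pair overlapped in its ratio between MI and Sham, with 1.31, 1.31 and 1.29 counts of Slc25a12 per count of Slc25a13 in MI+BPD, 1.47, 1.36 and 1.33 in MI and 1.35, 1.34 and 1.46 in Sham, a difference of 0.004 in MI against Sham (exact permutation p of 1). In MI+BPD the ratio of this pair lay below every MI and every Sham library. The difference was -0.09 against MI and -0.08 against Sham, each with an exact permutation p of 0.1 (0.35 and 0.117 adjusted). Slc25a22 over Slc25a18 rests on 0 to 4 counts of Slc25a18 and gives no reading.

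Setting each carrier against other nuclear genes of the same membrane shows which fell along with the respiratory chain. The reference is the mean log2 CPM of 28 nuclear OXPHOS subunit genes in the same library, which was 7.88 ± 0.35 in MI+BPD, 7.28 ± 0.45 in MI and 9.14 ± 0.05 in Sham (SD, n = 3 each). Relative to it, 33 of the 40 tested carriers were above, 5 below and 2 overlapped in MI against Sham, where 93% of all genes tested were above and 1.76% below without overlap. The 5 below were Slc25a34 at -0.50, Slc25a42 at -0.42, Slc25a20 at -0.35, Slc25a4 at -0.30 and Slc25a11 at -0.08, each with an exact permutation p of 0.1. These 5 fell further than the reference mean. Slc25a3 overlapped at 0.08, and Slc25a12 and Slc25a13 were above by only 0.14 and 0.13. The median was 1.37 over the tested carriers and 1.94 over all genes tested.

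**Figure D4:**
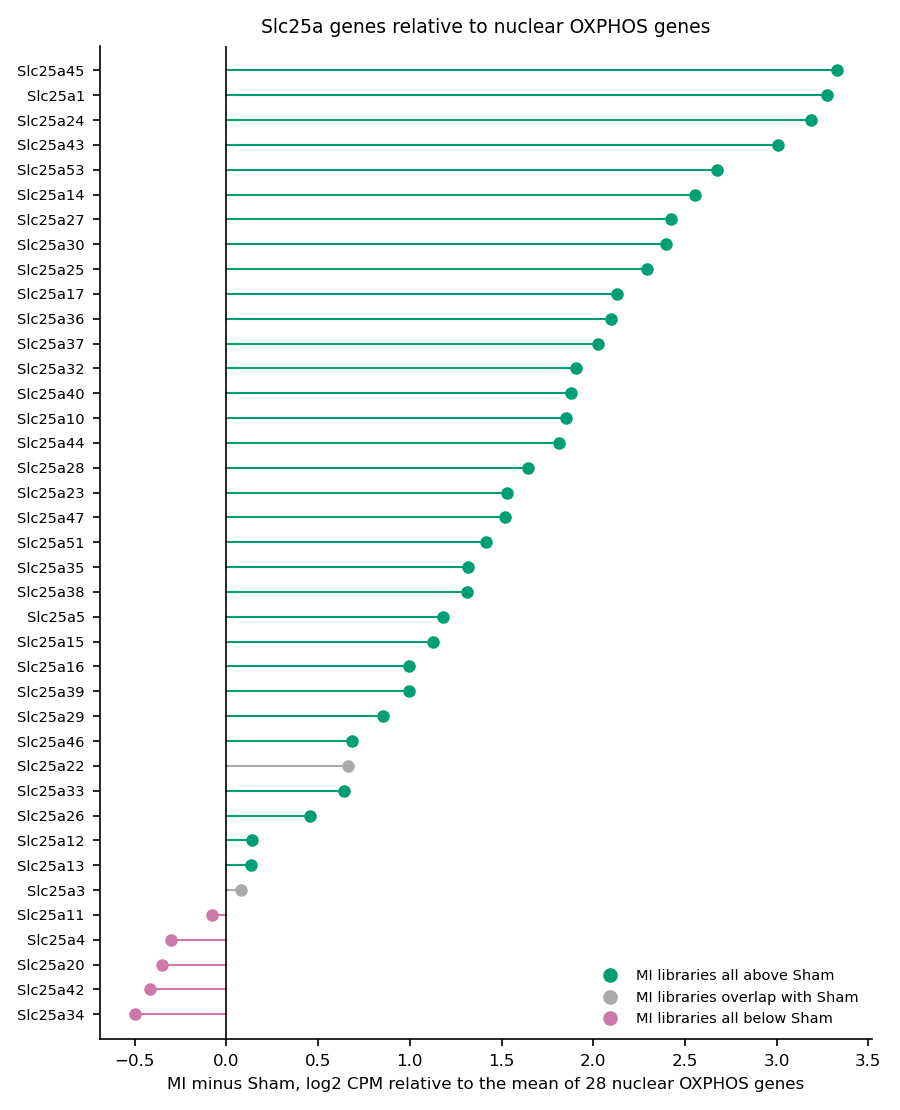
Difference between MI and Sham (horizontal axis) in log2 CPM relative to the mean of 28 nuclear OXPHOS genes, for 39 of the 40 tested carriers, sorted by value. Green points have all MI libraries above all Sham libraries (32), grey points overlap (2) and pink points have all MI libraries below (5). Slc25a45 is at 3.33 and Slc25a34 at -0.50.

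Between MI+BPD and MI the same measure placed 1 carrier above without overlap, Slc25a4 at 0.15, and 7 below, while 32 overlapped. Over all genes tested 0.522% were above and 14.1% below. Those below, between -0.45 and -1.35, included Slc25a27, Slc25a33, Slc25a36, Slc25a38, Slc25a43 and Slc25a47. The value of -1.35 is that of Slc25a43, a gene of few counts, with 2, 16 and 13 in MI+BPD and 14, 22 and 23 in MI. The reference itself was 0.60 higher in MI+BPD than in MI. For MI+BPD against Sham, 30 carriers were above, 4 below and 6 overlapped, with 88.6% of all genes above and 1.19% below. The 4 below were Slc25a4 at -0.15, Slc25a20 at -0.19, Slc25a34 at -0.34 and Slc25a42 at -0.40.

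How libraries are scaled decides the direction of the carriers in the middle of the range. Genes encoded by mitochondrial DNA took 25.7, 17.6 and 17.7% of the counts in MI+BPD, 11.4, 11.8 and 18.2% in MI and 34.7, 35.2 and 34.4% in Sham. When libraries were scaled by their totals alone, the median over all genes in MI against Sham became 0.81 instead of 0.07, and 19 carriers were called higher and 12 lower, beside 69.3% and 11.7% of all genes. The share of higher calls among all called genes became 85.6% instead of 53.6%. Measured from the median of all genes, the median carrier stood at -0.57 under TMM and at -0.58 under library totals. Under all 4 scalings tried, 12 carriers were called lower: Slc25a3, Slc25a4, Slc25a11, Slc25a12, Slc25a13, Slc25a20, Slc25a22, Slc25a26, Slc25a33, Slc25a34, Slc25a42 and Slc25a46. Likewise 7 were called higher under all 4, Slc25a1, Slc25a14, Slc25a24, Slc25a27, Slc25a30, Slc25a45 and Slc25a53. For MI+BPD against Sham, library totals gave 14 higher and 12 lower, beside 60.3% and 9.14% of all genes.

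**Figure D5:**
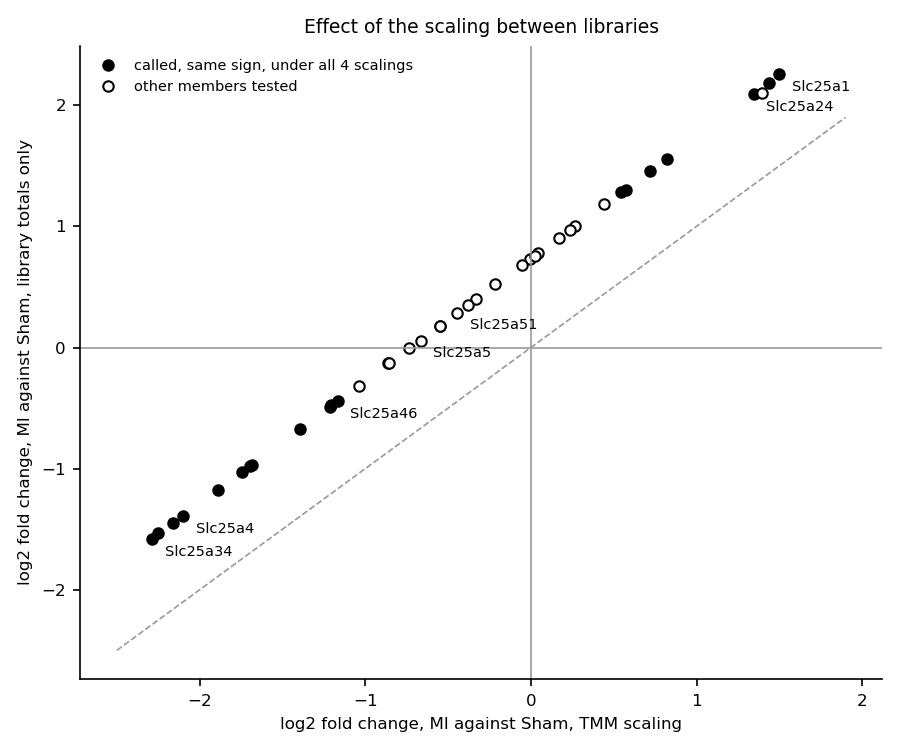
Log2 fold change in MI against Sham with TMM scaling (horizontal axis) and with library totals only (vertical axis) for 39 of the 40 tested carriers. The dashed line marks equal values. Filled points were called with the same sign under all 4 scalings (19), and every point lies above the dashed line.

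Proteins that share the carriers' pathways were counted for context, with none called in MI+BPD against MI in any list. Of 4 tested SLC25 family members with other symbols, Ucp2 and Mtch1 were each higher by 0.99 in MI than in Sham, and Ucp3, an uncoupling protein of muscle, and Mtch2 were lower at -3.51 and -1.04. Of 9 genes for the import of carriers into the inner membrane, 8 were lower in MI, Timm10 at -1.24 and Timm29 at -1.08 among them, and Timm10b was higher at 0.56. The carnitine shuttle around Slc25a20 had 4 of 6 enzymes lower, with Cpt2 at -2.24 and Crat at -2.17, and 1 higher, Cpt1c at 2.72. All 7 enzymes of the malate-aspartate and glycerol phosphate shuttles were lower, Got1 at -2.01 and Got2 at -1.90 among them. All 17 genes of the ATP synthase list, which includes porins and the mitochondrial creatine kinase Ckmt2 (-2.01), were lower, between -1.08 and -2.01. Mitochondrial transporters of other families were mixed, with 10 of 19 lower, such as the ATP-binding cassette transporter Abcb8 at -1.63, and 7 higher, such as Sfxn3 at 1.96 and Tspo at 1.76. Of 10 genes of mitochondrial iron use and glutathione synthesis, 6 were lower, the iron-sulphur cluster genes Nfs1 at -1.33 and Iscu at -0.76 among them, and Gclc was higher at 0.32. All values are log2 fold changes in MI against Sham from edgeR's quasi-likelihood fit with TMM scaling. In that comparison 31.9% of all genes tested were called lower and 37% higher, and in MI+BPD against MI 0% were called.

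The promoter letters of the carriers were described with 8 short motifs, searched on both strands in windows from 250 bases before to 50 bases after the RefSeq start. RefSeq gave such windows for 36 of the 47 carriers and for 27025 genes. The ERR response element TNAAGGTCA was found in 0 of 36 carriers, against 1.43% of all genes, and the PPAR response element, AGGTCA repeated after 1 base, in 0, against 0.0481%. The letters AGGTCA are shared by both motifs. The NRF1 site was found in 2, Slc25a3 and Slc25a31, against 5.19% of genes. The E-box CACGTG was found in 7 carriers against 8.09% of genes, Slc25a1, Slc25a13, Slc25a14, Slc25a15, Slc25a31, Slc25a33 and Slc25a36. CCAAT was found in 19 against 41.1%, the GC box GGGGCGGGG in 6 against 12.9%, the AP-1 site TGANTCA in 2 against 8.97%, and TATAAA in 2 against 15.7%. A match describes letters in this window and says nothing of binding.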

How the data were processed

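The deposited table holds raw read counts per gene symbol that the authors had not normalized. Reads were aligned with STAR, per the submitters' processing notes, which name the builds mm10, GRCm39 and mm39 without a role. What counted the reads, with which annotation and whether by strand is not given in the sources used here, so overlapping and antisense genes are uncertain. The tests used edgeR 4.0.16 in R 4.3.3, with TMM factors, the filterByExpr filter (at least 10 counts, and 15 in total) and robust quasi-likelihood estimates from all 9 libraries. Tests were 2-sided, with Benjamini-Hochberg adjustment over all 15138 genes tested, and genes were called at an adjusted p under 0.05. The tested genes held 99.9% of the counts. What edgeR names the biological coefficient of variation was 0.167 between libraries of a group, a spread that may be technical. The standard error (SE) follows from the F statistic. Pair ratios had 0.5 added to each count, and values relative to the OXPHOS genes used log2 CPM with a prior count of 2. Transcript lengths came from GENCODE M21, promoters from RefSeq (GRCm38.p6). Values per library are given for the 6 higher and 6 lower called carriers of largest change, for all 7 pairs, and for Slc25a3, Slc25a20, Slc25a11 and Slc25a1. The text also gives the 3 carriers of smallest p per direction in MI+BPD against MI, and of every other list at most 4 genes, those with the smallest adjusted p. Timm10b and Gclc were named after their values were seen, as the single higher genes of their lists. Values of 1 tested carrier and of 1 gene of another list are not reported here, though both are in the counts. Members, lists, roles and tests were chosen with earlier results of these data known. Alternatives were DESeq2 1.42.0, limma-voom (limma 3.58.1), other scalings, filters, sample sets, thresholds and a replicate block. On simulated data for MI against Sham, 5 of 200 genes changed 1.5-fold were recovered among 14928 genes, 122 of 200 changed 2-fold among 14905 genes, and 187 of 200 changed 4-fold among 14907. Only those 200 genes changed in each simulation, whereas 68.9% of all genes were called in the real comparison. The adjustment is less strict when many genes change, so these recovery rates do not carry over to the real data.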

Additional observations from a re-analysis of the deposited data

How the results depend on the processing

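Counts of called carriers in MI against Sham (10 higher, 22 lower) stayed within 1.5 times under every other alternative run than these: library totals only gave 19 higher and 12 lower, an adjusted p under 0.01 gave 6 higher, and a 1.5-fold minimum gave 5 higher. In MI+BPD against Sham (6 higher, 22 lower), library totals gave 14 higher and 12 lower, and the 1.5-fold minimum 3 higher. In MI+BPD against MI, limma-voom called 8 carriers (7 higher, 1 lower), the fits without 1 library between 0 and 8, all higher, and the fit without MI 3 and MI+BPD 1, chosen after the data were seen, 11 (10 higher, 1 lower). The cause was not tested. The labels do not say whether replicate numbers pair the libraries. Same-numbered deviations correlated between -0.09 and 0.003 in the comparisons with Sham and between -0.16 and 0.19 in MI+BPD against MI. Differently numbered ones correlated between -0.28 and 0.21 in MI+BPD against MI. So few correlations, of deviations from group means, cannot settle whether the numbers mark a pairing. With the replicate block, 32 carriers were called in MI against Sham, 0 in MI+BPD against MI and 28 in MI+BPD against Sham, 27 of these shared. Relative to the OXPHOS genes, carriers above without overlap in MI+BPD against MI numbered 1 to 4 and those below 7 to 34 in the fits without 1 library, and a median reference left 1 below in MI+BPD against Sham.

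Some signs reversed. With library totals in MI against Sham, Slc25a5 had 0.057, Slc25a10 0.73, Slc25a23 0.40, Slc25a28 0.52, Slc25a35 0.18, Slc25a38 0.18, Slc25a44 0.68, Slc25a47 0.35 and Slc25a51 0.29. With library totals in MI+BPD against Sham, Slc25a10 had 0.37, Slc25a23 0.12, Slc25a25 0.46, Slc25a28 0.27, Slc25a35 0.045, Slc25a38 0.0074, Slc25a40 0.48, Slc25a44 0.41, Slc25a47 0.15 and Slc25a51 0.21. In MI against Sham, Slc25a10 also had 0.062 with upper-quartile factors, 0.038 with no filter, 0.042 with the stricter filter and 0.043 without MI 3 and MI+BPD 1. Slc25a44 had 0.013 with upper-quartile factors, and Slc25a40 had -0.017 in DESeq2 and -0.016 with median-ratio factors. In MI+BPD against Sham, Slc25a37 had -0.015 in DESeq2 and -0.015 with median-ratio factors, and Slc25a25 had 0.0094 without MI 1 and MI+BPD 1 and 0.0074 without MI 3 and MI+BPD 1. Without 1 library at a time, the ranges crossed 0 in MI against Sham for Slc25a10 (-0.16 to 0.13), Slc25a32 (-0.019 to 0.093), Slc25a40 (-0.0097 to 0.056), Slc25a44 (-0.12 to 0.029), and in MI+BPD against Sham for Slc25a25 (-0.22 to 0.0074), Slc25a36 (-0.0081 to 0.083), Slc25a37 (-0.025 to 0.048). Likewise for the pairs, the ranges were Slc25a12 over Slc25a13 (-0.041 to 0.043) in MI against Sham, Slc25a23 over Slc25a24 (-0.24 to 0.082) in MI+BPD against MI, Slc25a22 over Slc25a18 (-1.30 to 0.28) in MI+BPD against MI. With 3 libraries a group, low carriers had wide errors: Slc25a43 at 1.40 ± 0.62 and Slc25a47 at -0.38 ± 0.29 (SE) in MI against Sham did not pass.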
